A study of Mus musculus with 42 samples.

Results

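The odour of lard-based high-fat diet (HFD) was compared with the odour of normal chow diet (NCD) by the messenger RNA that was bound to phosphorylated ribosomes in the main olfactory epithelium, the sheet of the nose that holds the olfactory sensory neurons. The mice were adult C57BL/6NCrl males, the odour lasted 1 h, and 4 epithelia were combined into each pool. There were 5 pools with HFD odour and 6 pools with NCD odour, and from each of these 11 the pulldown and the input were sequenced, which makes 22 of the 42 libraries of the study. All genes were considered, receptors and others alike, and 21168 of the 44674 genes in the table had enough counts to be tested. The other pools, 5 without odour and 5 with the odour of a bacon-flavoured diet (BFD) of the same nutrient content as NCD, entered the fit and are shown as background. The quantity followed here is the ratio of pulldown to input in the same pool, so every gene is measured relative to its own level in the tissue. Because whole epithelia were homogenized, more cells of a type and more RNA per cell cannot be told apart in any of the values below.

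An odorant activates the sensory neurons whose olfactory receptor binds it, and a mature neuron uses a single receptor gene. Activity leads to phosphorylation of ribosomal protein S6, and an antibody against phosphorylated S6 then pulls down ribosomes of recently active cells with the messenger RNA they carry (pS6-ribotrap). The messenger RNA of a receptor is therefore a label of the neuron type that was active. The epithelium also holds supporting cells, basal cells, glia, immune cells and mucus glands, and their RNA is in the pulldown and the input too.

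Markers of the labelled tissue were present. Omp, the marker of mature sensory neurons, had an input level of 6466 ± 265 CPM (counts scaled to the size of the library; SD, n = 6) with NCD odour and 5833 ± 486 (SD, n = 5) with HFD odour, and the supporting cell gene Cyp2g1 had 4182 ± 192 and 3940 ± 302. The depth of the 22 libraries was 24839390 to 36738198 counts with a median of 31161033. In the pulldowns, 13.4% ± 3.27 (SD, n = 5) of the counts with HFD odour came from ribosomal RNA, and 14.7% ± 4.20 (SD, n = 6) of those with NCD odour, a difference smaller than the SD of either group (p = 0.593, exact permutation test, two-sided). The inputs held 15.7% ± 4.68 (SD, n = 5) and 15.8% ± 2.46 (SD, n = 6) of it (p = 0.874, same exact test). Receptors took 0.368% ± 0.025 (SD, n = 5) of the pulldown counts with HFD odour and 0.350% ± 0.022 (SD, n = 6) with NCD odour.

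Few genes separated the odours. Of the 21168 genes tested, 5 had a different ratio with HFD and NCD odour at an adjusted p under 0.001 (edgeR's quasi-likelihood test, Benjamini-Hochberg adjustment over all genes), which is 0.0236% of them. Of these, 4 were lower with HFD odour, the receptors Olfr1324 and Olfr1354, the lipocalin Lcn4 and the gene ENSMUSG00000061305, which has no name in the annotation. The receptor Olfr1297 was higher. At an adjusted p under 0.05, 15 genes differed (0.0709%), 9 lower and 6 higher with HFD odour. The further receptors that were lower were Olfr1275, Olfr1384 and Olfr1254, the further receptor that was higher was Olfr1015, and the other genes were Lcn3 and Dmbt1, both lower, and Acsm4, 1700019D03Rik, Fmo6 and Fabp7, all higher. When the libraries were scaled on the receptors alone, 12 genes passed 0.05, 1 higher and 11 lower, so the share of higher genes depends on the scaling. A ratio under which every HFD pool lay above every NCD pool was found for 104 genes (0.491%), and one under which every HFD pool lay below for 99 genes (0.468%), and all 15 genes were among these 203.

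**Figure D1:**
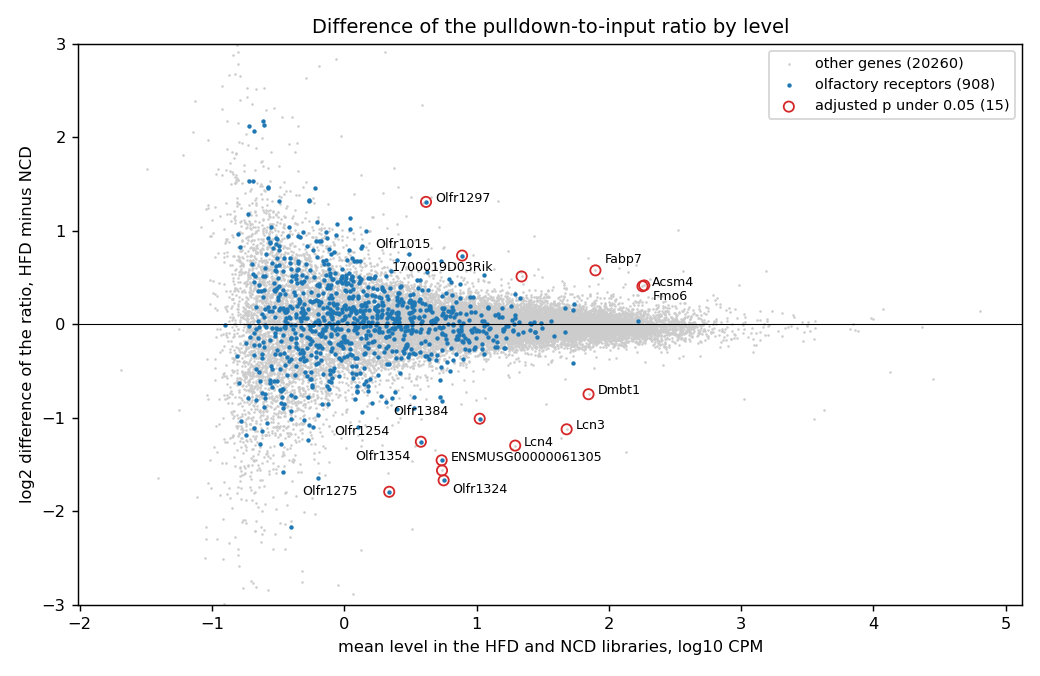
Each point is 1 of the 21168 genes tested, placed by its mean level over the HFD and NCD libraries (log10 CPM, horizontal axis) and by the difference of its log2 pulldown-to-input ratio, HFD minus NCD (vertical axis, 39 genes lie beyond its limits of 3). The 908 olfactory receptors are blue and the 15 genes with an adjusted p under 0.05 are circled, 9 of them below 0 and 6 above.

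Genes named as olfactory receptors made up 7 of the 15 genes at 0.05 (2 higher and 5 lower) and 3 of the 5 at 0.001 (1 higher and 2 lower). A gene without a name, such as ENSMUSG00000061305, could not be counted among them. Of the 908 receptors tested, this was 0.771% and 0.33%. At an unadjusted p under 0.05 there were 91 receptors, 46 higher and 45 lower, which is 10% of those tested, beside 979 genes or 4.62% over all genes. The family as a whole hardly moved, with a median log2 difference of 0.04 against -0.01 over all genes, and with scaling on the receptors alone this median turned to -0.02. There were 14 receptors with every HFD pool above every NCD pool and 14 with every HFD pool below, together 3.08% of the receptors tested, beside 0.959% over all genes.

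Olfr1324, a receptor gene on the X chromosome (GRCm38, chrX:50420998-50428498), had the smallest p-value of the comparison. Its log2 ratio was -0.04, -0.37, -0.43, -0.47 and -0.71 in the 5 HFD pools, and in the NCD pools it ran from 0.98 over a median of 1.21 to 1.54. The groups did not overlap, and every HFD pool lay below 0 while every NCD pool lay above it. The ratio was 3.18-fold lower with HFD odour (log2 difference -1.67, SE 0.17, adjusted p = 4.12e-06 by edgeR). The pulldown level was 3.41 ± 0.29 CPM (SD, n = 5) with HFD odour and 10.3 ± 0.885 (SD, n = 6) with NCD odour, whereas the input level was 4.56 ± 0.58 and 4.34 ± 0.82 CPM. Without odour the mean log2 ratio was 0.19, and with BFD odour it was 1.28. Olfr1324 messenger RNA was thus under its input level in the pulldowns with HFD odour and over it in those with NCD odour.

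Olfr1354 on chromosome 10 (chr10:78913171-78920399) followed the same order. Its log2 ratio was -0.63, -0.88, -0.81, -1.50 and -0.80 in the HFD pools and 0.32 to 0.71 with a median of 0.54 in the NCD pools. The log2 difference was -1.45 (SE 0.18, adjusted p = 5.55e-05 by edgeR), with pulldown levels of 2.89 ± 0.38 CPM (SD, n = 5) and 7.88 ± 0.94 (SD, n = 6) and input levels of 5.56 ± 0.86 and 5.47 ± 0.37. Of the 3912 words of 31 bases in its transcripts, 40% also occur in another gene's transcript, 1129 of them in the neighbouring receptor Olfr1355, so the estimated counts of this pair may be shared out imperfectly. Olfr1355 itself had a log2 difference of -1.64 (SE 0.58, adjusted p = 0.86).

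Olfr1297 on chromosome 2 (chr2:111615233-111626497) was the receptor with the largest rise among those that passed. Its log2 ratio was 0.53, 0.78, 0.29, -0.01 and 0.47 in the HFD pools and -1.25 to -0.47 with a median of -0.90 in the NCD pools, without overlap. The ratio was 2.48-fold higher with HFD odour (log2 difference 1.31, SE 0.19, adjusted p = 7.96e-04 by edgeR). The pulldown level was 5.64 ± 0.82 CPM (SD, n = 5) against 2.38 ± 0.43 (SD, n = 6), while the input level differed by a log2 of -0.06. Its mean log2 ratio was -1.27 without odour and -0.79 with BFD odour, both close to the NCD pools. Its adjusted p was above 0.001 without any of HFD replicates 1, 2, 3 and 6, NCD replicates 1, 3, 4, 5 and 6, BFD replicates 3, 4 and 5 and no-odour replicate 3, and 0.0056 at most.

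The unnamed gene ENSMUSG00000061305 stood close to Olfr1324 in size. Its log2 ratio was -0.10, -0.31, -0.02, -0.62 and -0.16 in the HFD pools and 0.90 to 1.63 with a median of 1.35 in the NCD pools (log2 difference -1.56, SE 0.19, adjusted p = 5.55e-05 by edgeR). Its pulldown level was 3.79 ± 0.485 CPM (SD, n = 5) with HFD odour and 9.77 ± 1.15 (SD, n = 6) with NCD odour, and its input level 4.48 ± 0.376 and 3.91 ± 0.542.

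**Figure D2:**
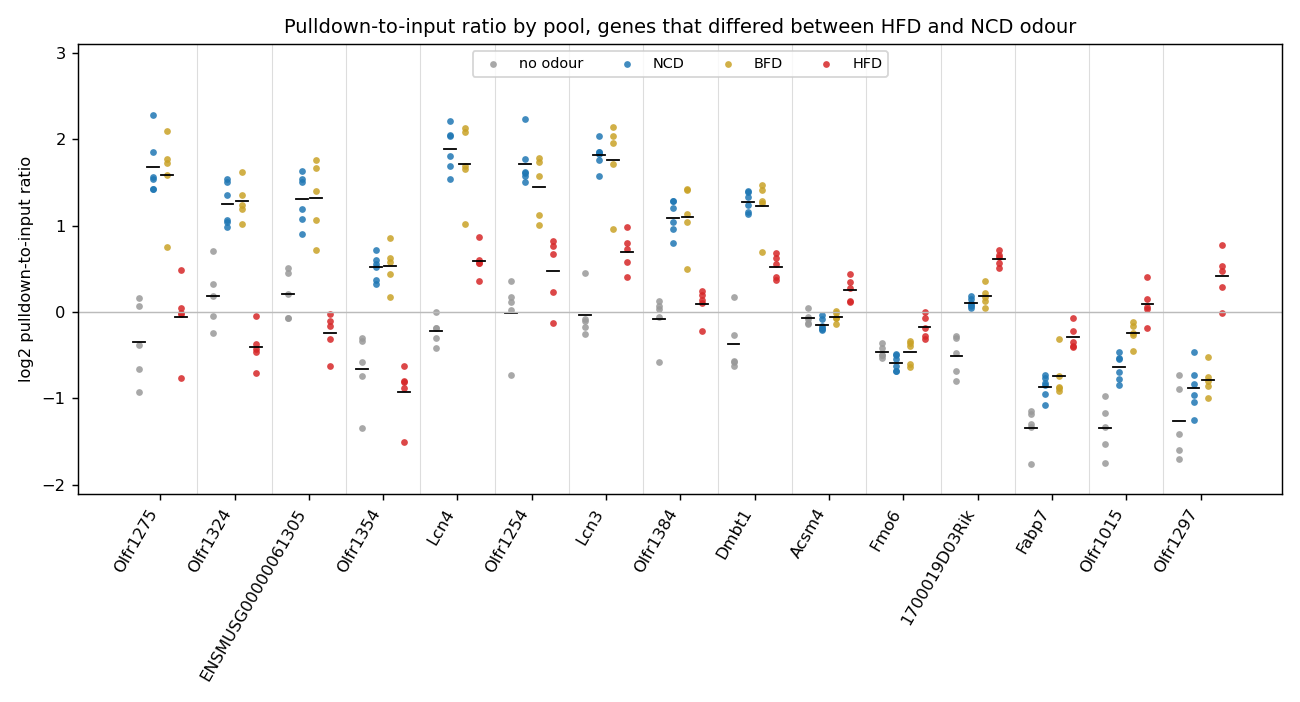
Log2 pulldown-to-input ratio (vertical axis) of the 15 genes with an adjusted p under 0.05, ordered by the difference between HFD and NCD odour, with 1 point per pool and the mean as a bar. For the 9 genes on the left every HFD pool (red) lies below every NCD pool (blue), and for the 6 on the right every HFD pool lies above.

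The 3 other receptors that were lower with HFD odour at 0.05 had a similar pattern. Olfr1275 (chr2:111230360-111235286) had the largest difference of the 15 genes, with log2 ratios of 0.48, -0.77, -0.03, 0.04 and -0.01 in the HFD pools and 1.42 to 2.27 in the NCD pools (log2 difference -1.79, SE 0.27, adjusted p = 0.0013 by edgeR). Its pulldown level was 1.25 ± 0.29 CPM (SD, n = 5) and 4.77 ± 0.60 (SD, n = 6), near the low end of the receptors that passed. Olfr1384 (chr11:49506724-49517345) had a log2 difference of -1.01 (SE 0.15, adjusted p = 0.0016) and HFD pools between -0.22 and 0.24. Olfr1254 (chr2:89787325-89793619) had a log2 difference of -1.26 (SE 0.21, adjusted p = 0.0077), with HFD pools from -0.13 to 0.82 and NCD pools from 1.50 to 2.23. For these and the other genes that were lower with HFD odour at 0.05, 9 in all, the pulldown level differed by a log2 of -1.90 to -0.67 and the input level by -0.17 to 0.28. In a test of the pulldown libraries alone, Lcn3 (adjusted p = 0.0593 by edgeR) and Dmbt1 (adjusted p = 0.207) did not pass 0.05, while the other 7 of these 9 genes did.

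Olfr1015 (chr2:85782017-85787812) was the other receptor that was higher with HFD odour. Its log2 ratio was 0.41, 0.03, 0.15, 0.06 and -0.19 in the HFD pools and -0.85 to -0.46 in the NCD pools, a log2 difference of 0.74 (SE 0.13, adjusted p = 0.011 by edgeR). The adjusted p was 0.0656 without HFD replicate 1, 0.056 without HFD replicate 3, 0.052 with scaling on the receptors alone and 0.474 without a term for the pool. The adjacent receptor Olfr1016 (chr2:85797618-85802544) had the opposite sign, with HFD pools from -1.43 to -0.71 and NCD pools from -0.59 to 0.33, but it did not pass (log2 difference -0.90, SE 0.20, adjusted p = 0.155). The receptors in the cluster of chromosome 2 that holds Olfr1275 and Olfr1297 likewise included members of either direction. Of the 22 receptors tested there, 11 had a positive and 11 a negative difference, with a median of -0.01.

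The receptors were also set against the pools without odour, which both contrasts share. They had been picked by the difference between these same NCD and HFD pools, which favours 1 high and 1 low value in advance. The contrasts with no odour are therefore a description and no separate support. The receptors that were lower with HFD odour were higher with NCD odour than without odour. Olfr1324 had a log2 difference from no odour of 1.05 (adjusted p = 4.21e-04 by edgeR) with NCD odour and of -0.61 (adjusted p = 0.022) with HFD odour. Its HFD pools (-0.71 to -0.04) and its pools without odour (-0.25 to 0.71) overlapped. Olfr1354 had 1.19 and -0.27, Olfr1275 had 2.06 and 0.27, Olfr1384 had 1.19 and 0.18, and Olfr1254 had 1.73 and 0.48 with NCD and HFD odour, and for these 4 receptors the NCD value passed 0.001 and the HFD value did not pass 0.05. Olfr1297 had 1.68 (adjusted p = 5.31e-06) with HFD odour and 0.37 (adjusted p = 0.216) with NCD odour. Olfr1015 passed with both, at 0.68 (adjusted p = 0.0031) with NCD odour and 1.42 (adjusted p = 4.11e-07) with HFD odour. BFD, which shares its nutrient content with NCD, gave mean log2 ratios of 0.53 for Olfr1354, 1.58 for Olfr1275, 1.10 for Olfr1384 and 1.44 for Olfr1254, and its difference from NCD did not pass for any of these receptors.

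Just outside the threshold of 0.05 stood Olfr1348, with an adjusted p of 0.051 by edgeR and of 0.0042 and 0.0021 by the DESeq2 fits. It is among the more abundant receptors, with pulldown levels of 56.0 ± 1.01 CPM (SD, n = 5) with HFD odour and 69.6 ± 5.16 (SD, n = 6) with NCD odour, and its log2 ratio was 0.25 to 0.39 in the HFD pools and 0.58 to 0.81 in the NCD pools. Among the receptors with the smallest p-values that did not pass, Olfr132, Olfr30, Olfr726, Olfr324, Olfr734 and Olfr901 had positive differences of 0.33 to 1.46 and Olfr466 and Olfr1016 negative differences of -0.82 and -0.90. Of these 8, Olfr324 and Olfr901 had overlapping HFD and NCD pools. The 8 receptors chosen because ligands are well known for them all had 95% intervals that include 0. Olfr2, which responds to the aldehyde octanal, had a log2 difference of -0.21 (95% interval -0.49 to 0.07), and Olfr16, a receptor for lyral, 0.08 (-0.30 to 0.46). Olfr78, Olfr544 and Olfr558, which are activated by short acids or diacids, had 0.31 (-0.30 to 0.92), 0.28 (-0.40 to 0.96) and 0.23 (-0.37 to 0.84). Olfr73, a receptor for eugenol, had -0.12 (-0.92 to 0.68), Olfr160 0.53 (-0.54 to 1.60) and the muscone receptor Olfr1440 -0.07 (-0.63 to 0.48).

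The level of a receptor set how small a difference could be seen. Among the 303 receptors with the lowest mean level (0.126 to 0.686 CPM) the median SE was 0.58 and the median 95% interval reached 1.20 on the log2 scale to either side. Among the 302 of middle level the median SE was 0.33. Among the 303 with the highest level, from 2.15 CPM, it was 0.18, with an interval of 0.36 to either side. All 7 receptors that passed 0.05 were among these 303. For receptors of the lower levels, differences within these intervals could not be told from 0. The intervals are not adjusted for the number of genes tested, so a difference beyond them could also fail to pass. Olfr1348, with a 95% interval of -0.59 to -0.24, was such a case.

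Along the genome, receptors sit in clusters, which are described here by their counts, and differences between clusters were not tested. In the cluster of chromosome 14, 25 of 34 receptors tested had a positive difference (median 0.14), and 6 passed an unadjusted p of 0.05, all higher with HFD odour, Olfr726 and Olfr734 among them. In the largest cluster of chromosome 2, which holds Olfr1015 and Olfr1254, 89 of 176 were positive (median 0.02), with 7 higher and 11 lower at an unadjusted 0.05, a share close to the 10% over all receptors tested. In the cluster on chromosome 16, 11 of 24 receptors tested had a positive and 13 a negative difference (median -0.03), and 5 passed the unadjusted 0.05, all lower. At an adjusted p under 0.05 the clusters of chromosomes 14 and 16 held 0 receptors (edgeR).

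Of the 4 genes not named as receptors that were lower with HFD odour at 0.05, 3 encode secreted proteins, Lcn4, Lcn3 and Dmbt1. The other is ENSMUSG00000061305. Receptors were recognized by their gene names, so it is not known whether this unnamed gene is one. Lipocalins are small secreted proteins that carry hydrophobic molecules, among them odorants and pheromones, in nasal mucus. The log2 ratio of Lcn4 (chr2:26667674-26671282) was 0.57, 0.86, 0.60, 0.36 and 0.56 in the HFD pools and 1.54 to 2.21 with a median of 1.92 in the NCD pools, so the groups were far apart (log2 difference -1.30, SE 0.15, adjusted p = 5.55e-05 by edgeR). For Lcn3 (chr2:25765569-25768099) the ratio was 0.79, 0.98, 0.72, 0.57 and 0.40 in the HFD pools and 1.57 to 2.03 in the NCD pools (log2 difference -1.12, SE 0.16, adjusted p = 0.0015). Dmbt1, a secreted scavenger receptor of mucosal surfaces (chr7:131032053-131121630), had ratios of 0.37 to 0.68 and 1.13 to 1.39 (log2 difference -0.75, SE 0.13, adjusted p = 0.0077). Without a term for the pool, the adjusted p by edgeR was 0.0535 for Lcn4, 0.496 for Lcn3 and 0.999984 for Dmbt1, so none of the 3 passed. Without HFD replicate 1 the adjusted p of Dmbt1 was 0.0521.

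With HFD odour, Lcn4, Lcn3 and Dmbt1 lay on average between the pools without odour and the NCD pools. These genes had been picked by the difference between the same HFD and NCD pools, which favours a higher NCD value in advance. Their mean log2 ratios without odour were -0.22, -0.03 and -0.37. Against these same pools without odour, Lcn4 rose by a log2 of 2.11 (adjusted p = 5.56e-09 by edgeR) with NCD odour and by 0.81 (adjusted p = 0.0033) with HFD odour. Lcn3 rose by 1.87 and 0.75 (adjusted p = 0.0071 for HFD odour) and Dmbt1 by 1.67 and 0.92. With BFD odour the mean log2 ratios of 1.71, 1.76 and 1.22 were close to those with NCD odour, and the differences between BFD and NCD odour of -0.17, -0.05 and -0.05 did not pass.

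**Figure D3:**
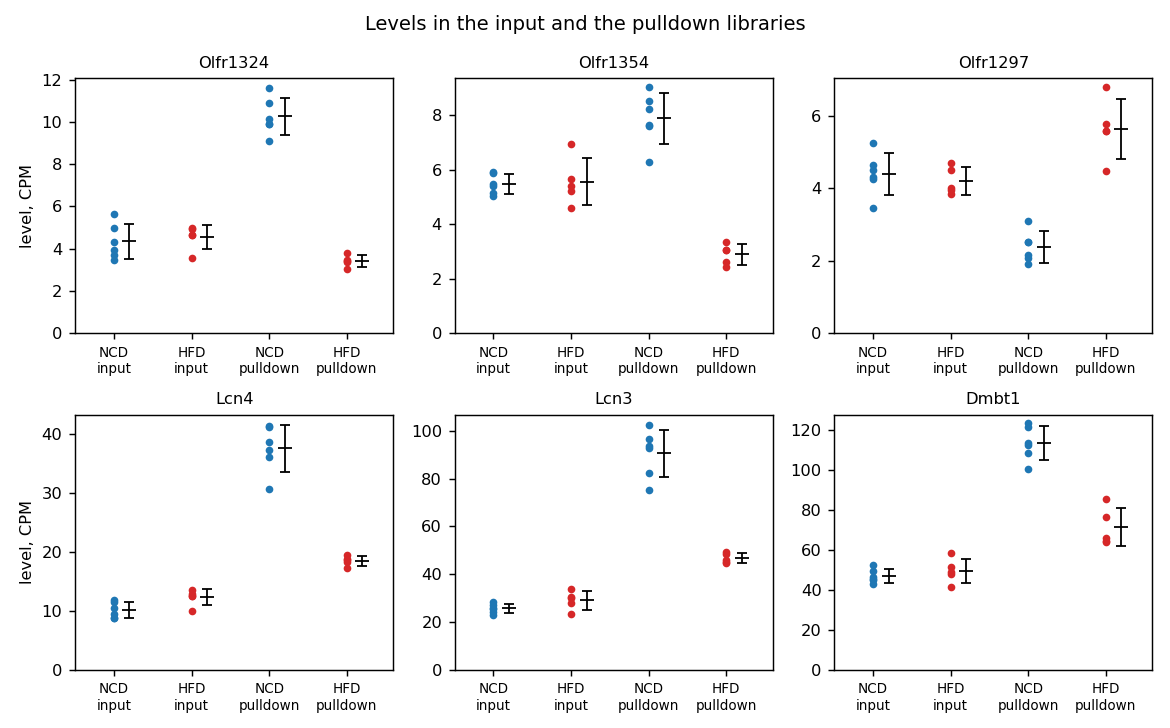
Level in CPM (vertical axis, from 0) of 3 receptors and 3 secreted proteins in the input and pulldown libraries, with 1 point per library and the mean ± SD beside it (n = 6 for NCD, n = 5 for HFD). Input levels overlap between the odours for all 6 genes, whereas the pulldown levels do not.

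The other lipocalins and odorant-binding proteins differed in another way. Of the 15 tested, 2 (Lcn3 and Lcn4) had a lower ratio and 0 a higher ratio at 0.05, beside 0.0709% of all genes. The median difference was 0.02. The absolute levels were another matter, since for 7 of the 15 every HFD library lay above every NCD library in both the pulldowns and the inputs, beside 1.8% and 0.869% of all genes for the pulldowns and the inputs alone. The summed level of the list was 10623 to 11673 CPM in the HFD pulldowns and 5123 to 6243 in the NCD pulldowns, and 4534 to 5847 and 2533 to 2962 CPM in the inputs. Obp2b, an odorant-binding protein, had median levels of 477 CPM in the HFD and 245 in the NCD pulldowns and of 228 and 81.7 in the inputs, with a log2 difference of the ratio of -0.43 (SE 0.17) that did not pass. Obp1a and Mup4, named here after their values were seen, had pulldown log2 differences of 0.96 and 1.03 and input log2 differences of 0.94 and 0.97, so their ratios differed by 0.02 (SE 0.28) and 0.05 (SE 0.28). Lcn3 and Lcn4 thus had lower pulldown levels with HFD odour (log2 differences of -0.95 and -1.02) in the same pools in which Obp1a, Obp1b, Obp2a, Obp2b, Lcn11 and Mup4 had higher ones.

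**Figure D4:**
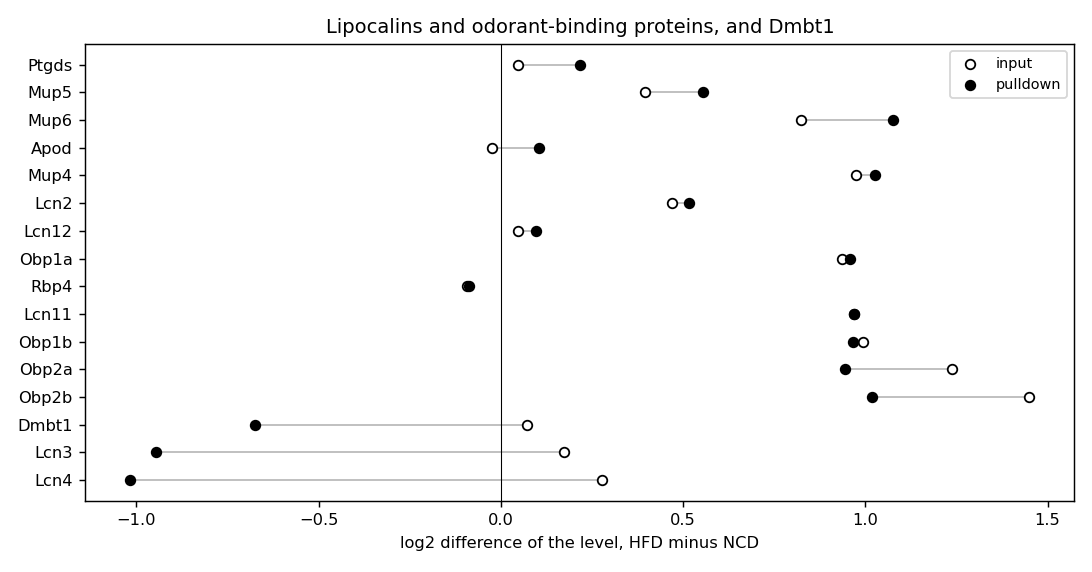
Log2 difference of the level, HFD minus NCD, in the input (open circles) and in the pulldown (filled circles) for the 15 lipocalins and odorant-binding proteins tested and for Dmbt1, ordered by the difference of the ratio. For Lcn4, Lcn3 and Dmbt1 the pulldown lies to the left of 0 and the input close to it, whereas for Obp1a, Obp1b, Lcn11 and Mup4 both lie near 1.

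The list of gland genes as a whole had 1 of 18 members past 0.05, Dmbt1, beside 0.0709% of all genes. It had 8 positive and 10 negative differences and a median of -0.02. Its summed level was also higher in every HFD library than in every NCD library of the same type, 18481 to 19425 against 13445 to 16719 CPM in the pulldowns and 9949 to 13138 against 8683 to 9905 in the inputs. Muc5b, a mucin of the olfactory glands, had a ratio difference of -0.04 (SE 0.17), Sox9 0.02 and Aqp5 0.15, and none of these passed. Levels of Muc5b overlapped between the odours in both types of library, at 2708 to 4006 CPM in the HFD and 2723 to 2911 in the NCD pulldowns. So did those of the gland gene Scgb1c1, at 11662 to 13228 and 9067 to 11817 CPM in the pulldowns. The part of gland content in the lower ratio of Lcn3, Lcn4 and Dmbt1 was not tested.

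Among the other genes that were higher with HFD odour were enzymes and a lipid carrier. Acsm4, an acyl-CoA synthetase that takes medium-chain fatty acids and marks the dorsal zone of the epithelium, had log2 ratios of 0.27, 0.12, 0.12, 0.35 and 0.44 in the HFD pools and -0.21 to -0.04 in the NCD pools (log2 difference 0.41, SE 0.072, adjusted p = 0.010 by edgeR). Fmo6, of the flavin monooxygenase family, had a log2 difference of 0.42 (SE 0.079, adjusted p = 0.025). Fabp7, the brain fatty acid binding protein that is made by olfactory ensheathing glia, had HFD pools from -0.40 to -0.07 and NCD pools from -1.08 to -0.73 (log2 difference 0.58, SE 0.11, adjusted p = 0.025). 1700019D03Rik, of unknown function here, had a log2 difference of 0.51 (SE 0.091, adjusted p = 0.010), and 32.5% of its words of 31 bases also occur in other genes, nearly all in Tespa1. For these genes and the 2 receptors that were higher, 6 in all, the input level differed by a log2 of -0.23 to 0.01 and the pulldown level by 0.18 to 1.23. For Acsm4 and Fmo6, a lower input with HFD odour (log2 differences of -0.18 and -0.23) stood beside pulldown differences of 0.23 and 0.18. With scaling on the receptors alone the adjusted p of Acsm4, Fmo6, Fabp7 and 1700019D03Rik was 0.205, 0.473, 0.187 and 0.091. Leaving out 1 pool also ended these calls: Acsm4 without HFD replicates 5 or 6 (adjusted p = 0.0665 and 0.063 by edgeR), 1700019D03Rik without HFD replicate 2 (0.0522), Fmo6 without NCD replicates 2, 5 or 6 or HFD replicates 1, 5 or 6 (up to 0.153), and Fabp7 without NCD replicates 1, 3, 5 or 6 or HFD replicates 1, 2, 3 or 5 (up to 0.159). Fmo6 did not pass without a term for the pool either (adjusted p = 0.108), nor in the pulldown libraries alone (log2 difference 0.19, adjusted p = 0.287).

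Of the 9 genes of ensheathing glia, Fabp7 was the 1 that passed. All 9 had a positive difference with a median of 0.23, and Frzb had 0.61 (SE 0.30) without passing. The summed level of the list was 243 to 256 CPM in the HFD pulldowns and 209 to 228 in the NCD pulldowns, and it overlapped in the inputs (281 to 362 and 302 to 349 CPM). In the list of lipid uptake and sensing, Acsm4 and Fabp7 were the 2 of 20 that passed, both higher, beside 0.0709% of all genes tested. Fabp7 is counted in the glia list as well, and Acsm4 in the zone list. Acsl5, a long-chain acyl-CoA synthetase, had 0.19 (SE 0.084) without passing. The lipid list had 13 positive and 7 negative differences with a median of 0.04. Of the 9 genes of the dorsal and ventral zones, Acsm4 alone passed, and Nqo1, an enzyme that also marks the dorsal zone, had 0.17 (SE 0.080). The zone list as a whole had 3 positive and 6 negative differences with a median of -0.02. The part of glia content in the difference of Fabp7 was not tested.

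**Figure D5:**
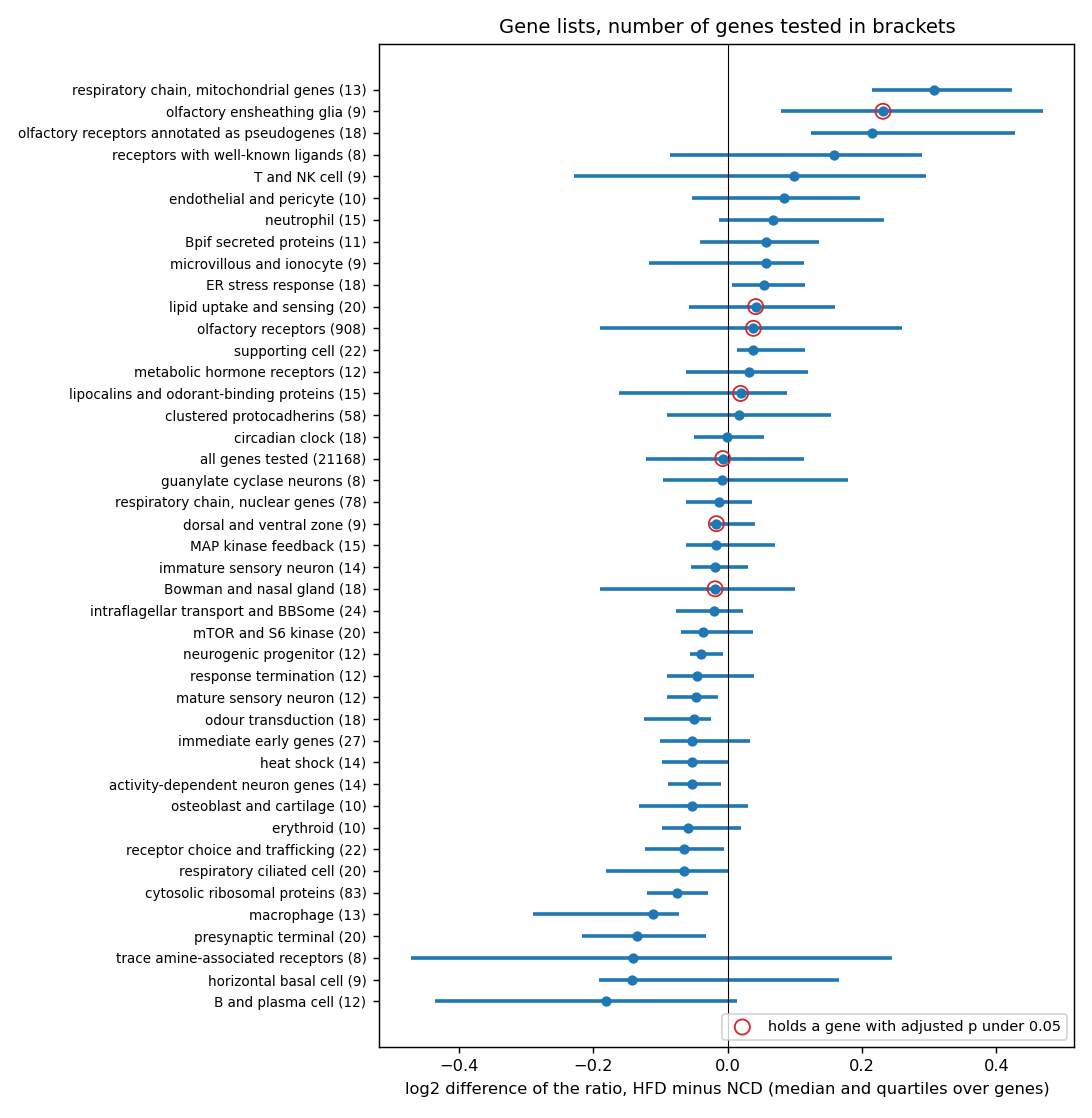
Median (point) and quartiles (line) over genes of the log2 difference of the pulldown-to-input ratio, HFD minus NCD, for gene lists with at least 8 genes tested (number in brackets) and for all genes. The medians lie between -0.18 and 0.31, and a red ring marks those with a gene at an adjusted p under 0.05.

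Outside the receptors, no gene passed the test in the lists of the odour response that follow. Of the 18 genes of odour transduction, which carry the signal from receptor to ion channel, 0 passed 0.05 by edgeR or by DESeq2 and 0 had an unadjusted p under 0.05, with a median difference of -0.05. Those with the smallest p-values were Rtp1, a chaperone of receptors, at -0.17 (SE 0.084), the phosphodiesterase Pde4a at -0.18 (SE 0.091) and Gnal, the G protein subunit of the olfactory receptors, at -0.16 (SE 0.086). Of the 27 immediate early genes, which are transcribed within minutes of activity, 0 passed by edgeR or DESeq2 and 0 reached an unadjusted p under 0.05. Their median was -0.05, and Egr2, Ier5 and Arc had 0.42 (SE 0.22), 0.15 (SE 0.082) and -0.34 (SE 0.18). The 15 feedback inhibitors of MAP kinase signalling (1 at an unadjusted 0.05, Spred3 at -0.51, SE 0.22), the 14 activity-dependent neuron genes and the 20 genes of mTOR and S6 kinase signalling, the pathway that phosphorylates S6, likewise held 0 genes past 0.05 by edgeR or DESeq2.

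Most lists of cell type markers held no gene past the test. Those of mature sensory neurons (12 genes, median -0.05), immature sensory neurons (14, -0.02), supporting cells (22, 0.04), ciliated cells (20, -0.06), erythroid cells (10, -0.06), neutrophils (15, 0.07) and macrophages (13, -0.11) held 0 genes past 0.05 by edgeR or DESeq2, and at an unadjusted p under 0.05 they held 1 supporting cell gene and 1 ciliated cell gene. Omp had a difference of 0.00 (SE 0.10). In the list of B and plasma cell genes, Igha, the heavy chain of immunoglobulin A, stood just outside 0.05 (log2 difference -0.57, SE 0.12, adjusted p = 0.058 by edgeR, and 0.0088 and 0.0092 by the DESeq2 fits). It passed 0.05 in 4 of the 21 fits with 1 pool left out, and without HFD replicate 1 the adjusted p was 0.0041 by edgeR. Its input level was 18.5 to 24.5 CPM with HFD odour and 9.95 to 12.3 with NCD odour, and its pulldown level was 20.7 to 25.6 and 14.9 to 16.7, so that both were higher with HFD odour and the input more so. Igkc had the same order, with median input levels of 23.8 and 12.3 CPM and median pulldown levels of 28.6 and 17.1, and Jchain had median input levels of 2.82 and 1.36 CPM. The list's summed level was 138 to 161 CPM in the HFD inputs and 109 to 121 in the NCD inputs.

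Smaller receptor families gave no gene past 0.05 by edgeR or DESeq2. Of the trace amine-associated receptors, which detect volatile amines, 8 were tested with a median of -0.14 and a median SE of 0.53, and Taar6 and Taar4 had -0.54 (SE 0.36) and -0.42 (SE 0.30). Olfactory receptors annotated as pseudogenes, of which 18 of 120 were tested, had 15 positive and 3 negative differences with a median of 0.21, with 0 at an unadjusted p under 0.05. The 83 cytosolic ribosomal protein genes had 12 positive and 71 negative differences with a median of -0.07, and 2 of them, Rpl17 and Rpl31, had an unadjusted p under 0.05, both lower. All 13 respiratory chain genes of the mitochondrial genome had positive differences with a median of 0.31, but their median SE was 0.68, and mt-Co2, with the smallest p-value, had 1.01 (SE 0.68). All mitochondrial genes apart from the ribosomal ones made up 0.924% ± 0.098 (SD, n = 5) of the input with HFD odour and 1.01% ± 0.042 (SD, n = 6) with NCD odour (p = 0.0866, exact permutation test, two-sided), and this p was 0.0476 without HFD replicate 2 or HFD replicate 5. In the pulldowns they made up 0.096% ± 0.059 (SD, n = 5) and 0.089% ± 0.077 (SD, n = 6), with p = 0.883 by the same exact test.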

How the data were processed

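RNA-seq libraries of pulldown and input were made from pools of mouse main olfactory epithelium. The authors used a low-input RNA kit, estimated abundances with Salmon in nf-core rnaseq (GRCm38) and deposited expected counts per gene, which are not normalized, and 30.9% of the values are not whole. Reads that match several genes are shared out by estimation, which affects similar receptors. The table holds 44674 genes, 44118 of them named in GENCODE M21, and 1170 receptors.

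Counts were rounded and filtered with filterByExpr (minimum count 10), which left 21168 genes and 908 receptors. All 42 libraries were scaled by TMM and fitted with edgeR's robust quasi-likelihood model, with 1 coefficient per pool and 1 pulldown effect per odour (edgeR 4.0.16, limma 3.58.1, R 4.3.3), and the contrast was HFD minus NCD. The common biological coefficient of variation was 12%. P-values are two-sided and adjusted over all genes tested, with the methods' threshold of 0.001 and a wider one of 0.05. Log2 ratios per pool were taken from CPM with a prior count of 2. The fit was tested on simulated data.

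The term for the pool rests on the methods, since a pulldown and its own input had a median correlation of deviations of 0.02 over 11 pools, against -0.005 for different pools. Libraries of a group all differed by more than sampling noise (chi-square of at least 3.37 times its degrees of freedom, 50 pairs). The labels do not say how mice were assigned to pools, and no library batch is named. Genes were named if they passed 0.001, were among the 8 receptors or 6 other genes with the smallest p-values in each direction, were among up to 3 members of a described list with the smallest p-values, were receptors with well-known ligands, or were cell type markers. Members and lists were chosen with earlier results of these data known. Alternatives were other scalings and filters, DESeq2 1.42.0, fits without a term for the pool, with a replicate block, on pulldown libraries or HFD and NCD pools only, ribosomal RNA left out or as a covariate, a prior count of 0.5, and each pool left out.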

Additional observations from a re-analysis of the deposited data

Results flagged for a closer look

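In 4 of the 72 groups of pools examined, a single pool stood apart from the others of its odour by Dixon's criterion, which chance alone meets in about 1 in 20 groups. For Olfr1354 the HFD pool 5 had a log2 pulldown-to-input ratio of -1.50, below the other HFD pools (-0.88 to -0.63). For Olfr734 the HFD pool 1 had 0.63, below the others (0.90 to 1.00). For Olfr1254 the NCD pool 5 had 2.23, above the others (1.50 to 1.77). For Igha the HFD pool 1 had 0.46, above the others (-0.17 to -0.04) and within the range of the NCD pools. Without HFD replicate 1, Igha passed 0.05. It also passed without NCD replicate 2 (adjusted p = 0.0264 by edgeR), BFD replicate 1 (0.0331) or no-odour replicate 4 (0.0236). These were the 4 of the 21 fits with 1 pool left out in which Igha passed, and it did not pass with all pools.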

How the results depend on the processing

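The counts were 5 genes and 3 receptors at 0.001 and 15 genes and 7 receptors at 0.05. They were 16, 7, 24 and 9 by DESeq2 with the same design, 16, 7, 38 and 15 by DESeq2 on pulldown divided by input, 53, 9, 209 and 32 with pulldown libraries only, 10, 5, 18 and 8 with HFD and NCD pools only, and 9, 6, 18 and 7 without a filter. With a replicate block they were 6, 2, 20 and 7, and same-numbered HFD and NCD pools had correlations of deviations of -0.12 to 0.13. A pulldown and its own input, which share their tissue, had a median of 0.02. This correlation therefore cannot decide whether the numbers pair the pools. In these 6 alternatives all 15 genes passed 0.05 again, except that 12 did with pulldown libraries only. With scaling on the receptors alone, 10 of the 15 passed 0.05, and without a term for the pool likewise 10. With each pool left out the counts ran from 4 to 9, 2 to 5, 12 to 18 and 6 to 8, the highest at 0.001 being without BFD replicate 1 (9 genes and 5 receptors). Of the 15 genes, all kept their sign under all alternatives, and Olfr1324, Olfr1354 and ENSMUSG00000061305 kept an adjusted p under 0.001. Olfr1297 missed 0.001 with the replicate block, the ribosomal RNA covariate and scaling on receptors alone. Fmo6 and Fabp7 missed 0.05 in 9 alternatives each. With pulldown libraries only, Igha was higher with HFD odour (0.53) and Olfr2 had 0.0026. With 1 pool left out, differences of either sign were found for Olfr16 (-0.016 to 0.16), Olfr73 (-0.32 to 0.083) and Olfr1440 (-0.27 to 0.040), and for HFD minus NCD of depth in megacounts (-0.78 to 1.66 in pulldowns, -1.61 to 0.67 in inputs), the ribosomal RNA share in percent (-2.48 to 0.14, -1.75 to 1.30) and the mitochondrial share of pulldowns (-0.019 to 0.033). The cause was not tested.

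Pools are few, and receptors at low levels had wide intervals. Levels in CPM are relative to the whole library.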

Other observations

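In the list of the endoplasmic reticulum stress response, 14 of 18 genes had positive differences with a median of 0.05 and 0 passed 0.05 by edgeR or DESeq2, and Hspa5 had 0.17 (SE 0.084).

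The list of presynaptic genes had 4 positive and 16 negative differences with a median of -0.13, and 0 of 20 passed 0.05 by edgeR or DESeq2. Syn1 had -0.21 (SE 0.087), Stx1a -0.24 (SE 0.11) and Th 1.15 (SE 0.53), the 3 genes of the list at an unadjusted p under 0.05.

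The gene ENSMUSG00000075178, which like ENSMUSG00000061305 has no name in the annotation, had HFD pools from -0.74 to 0.27 and NCD pools from 0.56 to 1.21 and pulldown levels of 1.91 ± 0.555 CPM (SD, n = 5) and 4.32 ± 0.353 (SD, n = 6), and its difference did not pass (adjusted p = 0.12 by edgeR). Alg10b, a glucosyltransferase, had a log2 difference of 0.36 (SE 0.083, adjusted p = 0.183 by edgeR), with HFD pools from -0.07 to 0.09 and NCD pools from -0.59 to -0.16. Slc39a8, a metal ion transporter, had a log2 difference of 0.45 (SE 0.098, adjusted p = 0.12).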
